A study of Mus musculus with 6 samples.

Results

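The genes described here are Ccl2, Ccl7, Ccl8 and Ccl12, which encode the monocyte chemoattractant proteins (MCPs) of the mouse. They were found by symbol in a table of 35275 genes, in which each of the 4 symbols had its own row. RNA was sequenced from tumour-associated macrophages (CD11b+ F4/80+ and Ly6G- Ly6C- by flow cytometry) of 65-day-old female FVB/NJ mice with MMTV-PyMT mammary tumours. The MMTV promoter drives the polyoma middle T oncogene in the mammary epithelium, so the tumours arose spontaneously. The group labelled Atg5 KO (3 mice) carried MMTV-PyMT, Atg5flox/flox and LysMcre, and the group labelled Atg5 WT (3 mice) carried MMTV-PyMT and Atg5flox/flox without the Cre. LysMcre is a Cre recombinase placed in the Lyz2 gene, which myeloid cells in general use, so deletion need not be limited to the sorted cells. The comparison addresses how the transcripts of tumour macrophages differ when Atg5, a gene needed to form autophagosomes, is targeted in myeloid cells.

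MCP chemokines are small secreted proteins with adjacent cysteines near the amino terminus that call monocytes, and some other leukocytes, out of the bone marrow and blood and into tissue. Their main receptor on inflammatory monocytes is Ccr2. Ccl2, Ccl7 and Ccl12 act on that receptor, whereas mouse Ccl8 is best known as a ligand of Ccr8, a receptor of T helper and regulatory T cells. In mammary tumours, Ccl2 is known for drawing in the monocytes that become tumour-associated macrophages.

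Each library held between 18770262 and 21173301 reads, recovered from the FPKM values (reads per kilobase of gene and per counted reads of the library, scaled as usual for this unit) and the listed gene lengths. Over the whole gene, Atg5 went against the label, with an FPKM of 14.0, 16.6 and 17.4 in libraries labelled Atg5 KO, against 5.15, 5.11 and 5.28 in those labelled Atg5 WT, and this value does not isolate the floxed part. Lyz2, the gene that carries the Cre, was lower under the Atg5 KO label, at 12.1 ± 3.85 against 4446 ± 2267 (SD, n = 3 each; limma-trend adjusted p = 0.0306). It was the only gene called, and 0 genes were called with no filter, with median-ratio scaling, with limma-voom, with the replicate block, or when any library but the one labelled Atg5 WT replicate 2 was left out. The sorting antigens were present, with Adgre1, which encodes F4/80, between 195 and 258 FPKM in libraries labelled Atg5 KO, against 49.97 to 210.0 in those labelled Atg5 WT. Itgam, which encodes CD11b, averaged 163 FPKM in libraries labelled Atg5 KO, against 117 in those labelled Atg5 WT. Ly6g was at or below 0.308 in every library. Ly6c2, for the other antigen selected against, averaged 3.90 in libraries labelled Atg5 KO, against 0.740 in those labelled Atg5 WT. Its difference did not pass (limma-trend adjusted p = 0.492). One library differed from the other 5: that labelled Atg5 WT replicate 2 had the highest tumour-cell score (7.31, the mean log2(FPKM + 1) of 21 mammary epithelium and tumour cell genes) together with the lowest macrophage score (6.998, the same over 17 macrophage genes without Lyz2). Fewer macrophages and less RNA per macrophage cannot be told apart in these libraries.

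The 4 genes lie in the same orientation within 81229 bp of chromosome 11 (mm10). Ccl2 (ENSMUSG00000035385) spans 82035571 to 82037453, Ccl7 (ENSMUSG00000035373) 82045712 to 82047525, Ccl12 (ENSMUSG00000035352) 82101845 to 82103400 and Ccl8 (ENSMUSG00000009185) 82115185 to 82116799, all on the plus strand. In GENCODE M21 the main transcript of each has 3 exons. No stretch of 50 bases of their main transcripts occurs in a transcript of another gene, and the longest run shared by any pair is 23 bases (Ccl2 and Ccl7). Over aligned bases, transcript identity ran between 63.4% for Ccl2 and Ccl7 and 72.2% for Ccl2 and Ccl8. The predicted gene Gm17268 overlaps Ccl2 on the opposite strand, and it was at 0 FPKM in 5 libraries and at 0.807 in the library labelled Atg5 WT replicate 3. With a listed length of only 66 bp, this value rests on very few reads.

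Ccl8 was the most abundant of the 4 in every library and the only one whose groups did not overlap. Its FPKM was 937, 869.8 and 1320.3 in libraries labelled Atg5 KO (replicates 1, 2 and 3 in turn), against 491, 263 and 785 in those labelled Atg5 WT. Every library labelled Atg5 KO lay above every library labelled Atg5 WT, although the gap between the lowest of the first (869.8) and the highest of the second (785) was small beside the spread within each group. The means were 1042 ± 243 and 513 ± 262 (SD, n = 3 each), a 2.03-fold higher mean in libraries labelled Atg5 KO. On the log2(FPKM + 1) scale the difference was 1.13 with an SE of 0.42 and a 95% interval from 0.10 to 2.16. It did not pass over all 12332 genes tested (limma-trend unadjusted p = 0.0364, adjusted p = 0.492). Among all genes of the table, ordered by FPKM from the highest, Ccl8 was 65th, 71st and 42nd in libraries labelled Atg5 KO, against 140th, 231st and 75th in those labelled Atg5 WT.

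Of the 4 members, only Ccl8 and its nearest neighbour Ccl12 have an upstream region in the RefSeq promoter table (build GRCm38.p6), and Ccl2 and Ccl7 have no entry. The 250 bases before each start site are therefore shown for these members only. Ccl8 is the member whose groups lay apart and Ccl12 is the member beside it, transcribed the same way, whose groups overlapped. Capitals mark matches to TATAAA, the TATA box, and to GGGAAA, the core letters of many NF-kB sites, on either strand; the Ccl8 window is chr11:82114935-82115184 and the Ccl12 window chr11:82101595-82101844, both plus strand, 5′ to 3′.
Ccl8: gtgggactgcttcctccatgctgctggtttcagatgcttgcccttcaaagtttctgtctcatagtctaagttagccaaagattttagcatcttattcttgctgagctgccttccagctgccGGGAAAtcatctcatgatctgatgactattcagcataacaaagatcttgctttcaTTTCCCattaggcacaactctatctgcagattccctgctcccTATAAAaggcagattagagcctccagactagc
Ccl12: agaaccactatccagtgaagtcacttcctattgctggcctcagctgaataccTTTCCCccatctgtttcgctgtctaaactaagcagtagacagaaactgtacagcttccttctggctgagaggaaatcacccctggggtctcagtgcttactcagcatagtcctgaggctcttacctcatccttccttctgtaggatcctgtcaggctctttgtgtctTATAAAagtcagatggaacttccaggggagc
Both windows hold a TATA box, at -32 to -27 from the start site in Ccl8 and at -31 to -26 in Ccl12. Ccl8 holds GGGAAA at -129 to -124 and its reverse complement TTTCCC at -74 to -69, and Ccl12 holds TTTCCC at -198 to -193. Of 32851 windows of the same length, 12.4% hold TATAAA and 21.9% GGGAAA on either strand. The letters TGANTCA (AP-1), TTCNNNGAA (GAS) and TTGCNNAA (C/EBP) occur in neither window, and in 6.75%, 7.02% and 9.56% of all windows. The windows were identical at 145 of 234 aligned bases, or 62.0%. A match to letters is a description of the sequence and no evidence of binding.

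Ccl12, which in the mouse acts on Ccr2, was the least abundant of the 4 in every library. Its FPKM was 98.2, 109 and 132 in libraries labelled Atg5 KO, against 98.5, 24.4 and 144 in those labelled Atg5 WT. The groups overlapped, and the library labelled Atg5 WT replicate 2 lay far below the other 5, which held between 98.2 and 144. The means were 113 ± 17.3 and 89.0 ± 60.4 (SD, n = 3 each). On the log2 scale this gave a difference of 0.66, SE 0.64 (95% interval -0.92 to 2.24) and did not pass (limma-trend adjusted p = 0.612). With the library labelled Atg5 WT replicate 2 left out, it was -0.085.

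Ccl2, the founding member of the family, was measured at 139, 247 and 176 FPKM in libraries labelled Atg5 KO, against 193, 88.8 and 274 in those labelled Atg5 WT. The highest and the lowest library both carried the Atg5 WT label, so the groups overlapped fully. The means were 188 ± 55.0 and 185 ± 92.6 (SD, n = 3 each), with a log2 difference of 0.12, an SE of 0.45 and a 95% interval from -0.98 to 1.22 (limma-trend adjusted p = 0.901). The sign of the difference was therefore not resolved. The direction rested on single libraries, at -0.33 without the library labelled Atg5 WT replicate 2 and -0.10 without the one labelled Atg5 KO replicate 2.

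Ccl7, which shares Ccr2 with Ccl2 and also binds Ccr1 and Ccr3, stood at 166, 327 and 226 FPKM in libraries labelled Atg5 KO, against 227, 82.3 and 358 in those labelled Atg5 WT. It ordered the libraries of each group as Ccl2 did, with the same library highest and the same lowest. The means were 239.8 ± 81.0 and 223 ± 138 (SD, n = 3 each), with a log2 difference of 0.29, an SE of 0.57 and a 95% interval from -1.11 to 1.69 (limma-trend adjusted p = 0.800). With the library labelled Atg5 WT replicate 2 left out, it was -0.30.

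**Figure D1:**
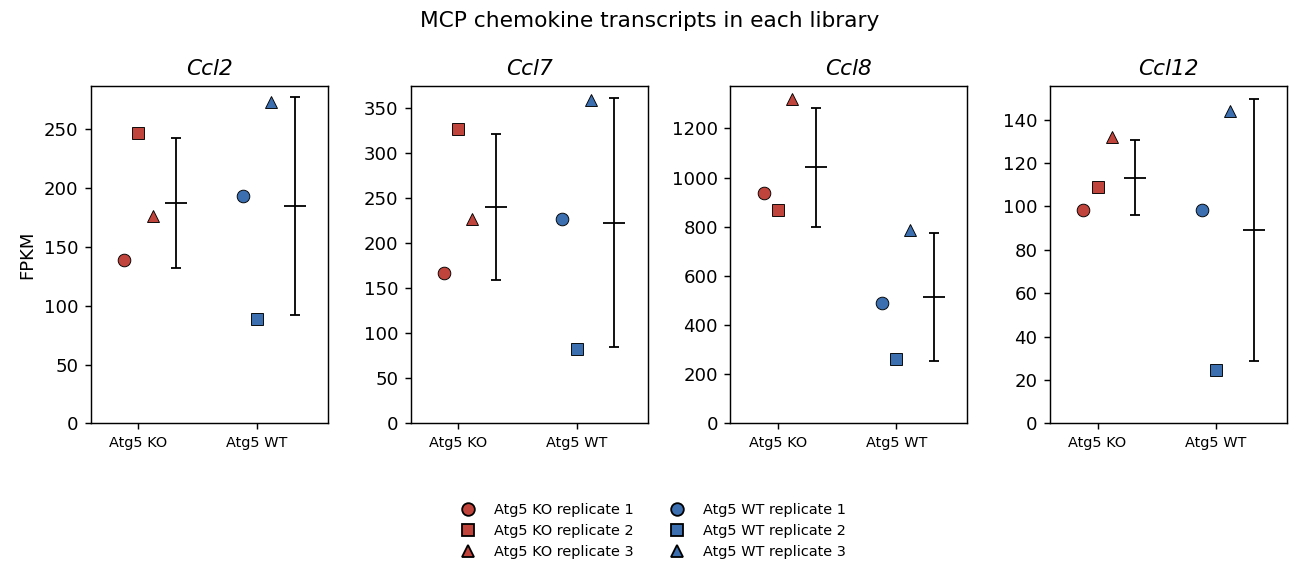
FPKM of Ccl2, Ccl7, Ccl8 and Ccl12 (vertical axes from 0, one scale per gene) in the 3 libraries labelled Atg5 KO (red) and the 3 labelled Atg5 WT (blue), with the group mean and SD in black beside the points. The groups separate for Ccl8 and overlap for the other members, and the library labelled Atg5 WT replicate 2 is the lowest for all 4.

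Read against the background, the test called 0 of the 4 genes by limma-trend and 0 by limma-voom on the recovered reads. At an unadjusted p under 0.05 the numbers were 1 (Ccl8) by limma-trend and 0 by limma-voom, where Ccl8 had an unadjusted p of 0.0627. Over all genes, limma-trend called 0% as higher under the Atg5 KO label and 0.00811% as lower, limma-voom called 0% in either direction, and the shares at an unadjusted p under 0.05 were 4.84% higher and 5.17% lower by limma-trend and 10.4% in either direction by limma-voom. The groups lay apart, higher in libraries labelled Atg5 KO, for 1 of the 4 genes and for 9.2% of all genes tested. Of the 12332 genes tested, 4593 had a higher and 7739 a lower mean log2(FPKM + 1) in libraries labelled Atg5 KO. All 4 genes had their lowest value in the library labelled Atg5 WT replicate 2, as did 23.7% of the genes tested. All 4 passed the filter on low values, with reads in a library running from 253 (Ccl12 in the library labelled Atg5 WT replicate 2) to 13430 (Ccl8 in the library labelled Atg5 KO replicate 3).

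**Figure D2:**
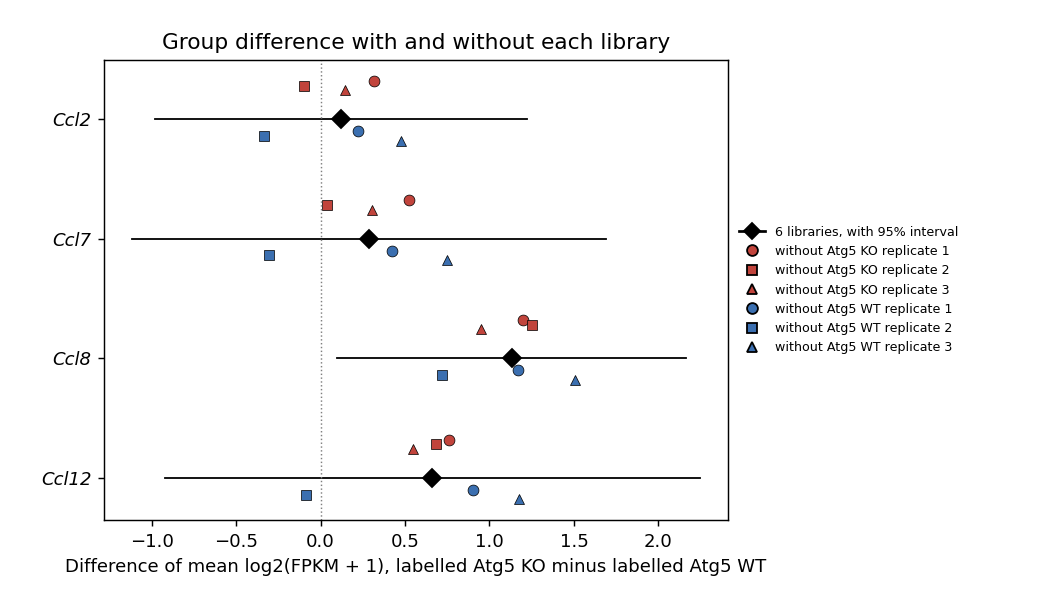
Difference between the group means of log2(FPKM + 1), Atg5 KO label minus Atg5 WT label (horizontal axis), for each gene with all 6 libraries (black diamond, line for the 95% interval from limma) and with 1 library left out (coloured symbols). The Ccl8 differences stay between 0.72 and 1.51, while those of Ccl2, Ccl7 and Ccl12 fall below 0 once the library labelled Atg5 WT replicate 2 is left out, and that of Ccl2 also without the one labelled Atg5 KO replicate 2.

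The balance among the members was described by the share of each in their sum. Ccl8 made up 69.9%, 56.0% and 71.2% of the summed FPKM of the 4 genes in libraries labelled Atg5 KO, against 48.6%, 57.4% and 50.3% in those labelled Atg5 WT. Here the ranges overlapped, since the library labelled Atg5 KO replicate 2 held a smaller share than the one labelled Atg5 WT replicate 2. Ccl2 made up 10.4%, 15.9% and 9.49% against 19.1%, 19.4% and 17.5%, without overlap. The shares of Ccl7 and of Ccl12 overlapped between the groups. Each share also depends on the other members of the sum, Ccl8 being the largest, and the FPKM of Ccl2 itself overlapped fully. These shares are given as a description, with no comparison over all genes. The sum itself was 1340.3, 1553 and 1855 FPKM in libraries labelled Atg5 KO, against 1009.6, 459 and 1561 in those labelled Atg5 WT, and overlapped.

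Ccl8 stood further above Ccl2 in each library labelled Atg5 KO than in any labelled Atg5 WT. The ratio of Ccl8 to Ccl2 FPKM was 6.73, 3.52 and 7.50, against 2.54, 2.97 and 2.87, with means of 5.92 ± 2.11 and 2.79 ± 0.222 (SD, n = 3 each). Of all genes tested, 3.24% had a ratio to Ccl2 that lay apart in this direction and 1.67% in the other. The ratio of Ccl7 to Ccl2 lay in a narrower range, at 1.20, 1.32 and 1.29 against 1.18, 0.926 and 1.31, and the ratio of Ccl12 to Ccl2 was 0.706, 0.441 and 0.750 against 0.511, 0.275 and 0.527, both with overlap. No test is given for these ratios, which were formed over the members with their values known.

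**Figure D3:**
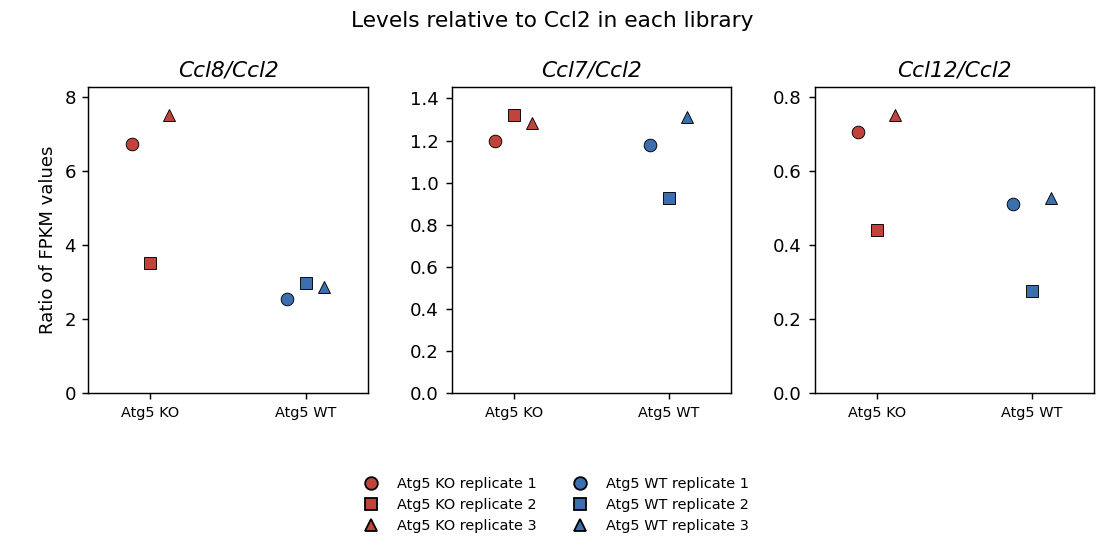
Ratio of the FPKM of Ccl8, Ccl7 and Ccl12 to that of Ccl2 (vertical axes from 0) in each library, labelled Atg5 KO in red and labelled Atg5 WT in blue. The Ccl8 ratio is 3.52 or more in libraries labelled Atg5 KO and 2.97 or less in those labelled Atg5 WT, with the library labelled Atg5 KO replicate 2 nearest to the other group, and the Ccl7 and Ccl12 ratios overlap.

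Within libraries labelled Atg5 KO, replicate 2 was highest for one pair of members and lowest for Ccl8. It had the highest Ccl2 (247 FPKM) and Ccl7 (327) and the lowest Ccl8 (869.8). Genes of other lists in which it was also the highest or lowest of the 3 are given as examples, without a share over all genes. Tnf, an inflammatory cytokine named after its values were seen, was at 86.6, 192 and 104 FPKM in replicates 1, 2 and 3. Its mean was 127 FPKM in libraries labelled Atg5 KO and 147 in those labelled Atg5 WT (log2 difference -0.07). Ly6c2, which encodes the monocyte antigen Ly6C that the sort selected against, was at 5.71, 0.702 and 5.29, against 0.861, 0.483 and 0.875 in those labelled Atg5 WT. Other genes listed for recruited monocytes did not all share this low in replicate 2. Plac8 was also lowest there, while Ccr2 was not, at 40.6, 49.8 and 52.3 FPKM in replicates 1, 2 and 3. The part of these differences in the chemokine values was not tested.

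The order of levels per length was Ccl8, Ccl7, Ccl2 and Ccl12 in 5 libraries, and Ccl8, Ccl2, Ccl7 and Ccl12 in the library labelled Atg5 WT replicate 2. The ranges of Ccl7 and Ccl2 overlapped in both groups, while within each library labelled Atg5 KO Ccl7 was above Ccl2, by the ratios given above. Their order depends on the gene model. The table lists 1096 bp for Ccl2, while its main transcript in GENCODE M21 has 813 bp; the listed lengths of the other members equal those of their main transcripts (801, 511 and 537 bp for Ccl7, Ccl8 and Ccl12). With 813 bp, Ccl2 would be at 188, 333 and 237 FPKM in libraries labelled Atg5 KO, against 260.1, 119.7 and 369 in those labelled Atg5 WT, above Ccl7 in every library. Ratios between the groups do not depend on the length. Ccl2 and Ccl12 were apart in libraries labelled Atg5 KO and overlapped in those labelled Atg5 WT.

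Scores of other cell types differed between the libraries and are set here beside the chemokines. The tumour-cell score was 5.80, 4.49 and 3.93 in libraries labelled Atg5 KO, against 6.34, 7.31 and 4.21 in those labelled Atg5 WT (exact two-sided permutation p = 0.3, smallest possible 0.1). The stromal score, over 16 fibroblast and pericyte genes, was 3.07, 2.91 and 2.01 against 4.07, 5.44 and 3.44, without overlap (exact two-sided permutation p = 0.1). The macrophage score without Lyz2 was 8.64, 8.77 and 8.99 against 8.26, 6.998 and 8.77 (exact two-sided permutation p = 0.3). All 4 chemokine genes were lowest where the macrophage score was lowest and the tumour-cell and stromal scores highest. The log2 difference of Ccl8 was 0.64 after adding the tumour-cell score as covariate, and 0.44 after adding the macrophage score, a covariate chosen after seeing the data. With the stromal score, which itself separated the groups, it was -0.042, and none of the 3 passed (limma-trend adjusted p between 0.431 and 0.913).

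Set against the macrophage score, Ccl2 and not Ccl8 lay apart between the groups. Log2(FPKM + 1) of Ccl2 less the macrophage score was -1.51, -0.81 and -1.52 in libraries labelled Atg5 KO, against -0.66, -0.51 and -0.67 in those labelled Atg5 WT. These groups did not overlap, with Ccl2 lower relative to the macrophage score in libraries labelled Atg5 KO (difference -0.67, exact two-sided permutation p = 0.1, the smallest possible). Of all genes tested, 16.5% lay apart in this direction and 0.397% in the other, so Ccl2 shared this pattern with many genes. The same value for Ccl8 was 1.23, 0.998 and 1.38 against 0.68, 1.05 and 0.84, and overlapped (difference 0.34, exact two-sided permutation p = 0.2). For Ccl7 the difference was -0.50 (exact two-sided permutation p = 0.3) and for Ccl12 -0.13 (exact two-sided permutation p = 0.7). These p-values are not adjusted over the 4 genes, and values less the macrophage score were not among the comparisons planned beforehand. The macrophage score itself was 0.79 higher in the mean in libraries labelled Atg5 KO, while the log2 difference of Ccl2 was 0.12.

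The marker lists behind those scores had no gene past the test except Lyz2. Of the 21 tested mammary epithelium and tumour cell genes, 0 had a higher mean in libraries labelled Atg5 KO (median log2 difference -1.28), and their summed FPKM ran from 773 to 3212, against 838 to 8858 in those labelled Atg5 WT. Krt8, a keratin of the luminal epithelium, was at 302, 105 and 49.0 FPKM against 474, 798 and 108, and the basal keratins Krt14 and Krt5 had log2 differences of -1.87 and -1.60. All 16 fibroblast and pericyte genes were lower in the mean (median -1.73; sums of 81.4 to 222 against 305 to 1629), for instance Rgs5, Acta2 and Pdgfrb, and 15 did not overlap between the groups. Of 13 endothelial genes, 12 were lower in the mean (median -1.08), with Kdr, Cldn5 and Cdh5 of smallest p (log2 differences -1.21, -1.54 and -1.76). Of 18 macrophage identity genes, 16 were higher in the mean (median 0.86), among them Aif1 and Mertk. Of the endothelial genes 8 lay apart with lower values, and of the mammary epithelium and tumour cell genes 0. Of the macrophage identity genes, 3 lay apart with higher values and 1 with lower. The medians stand beside -0.09 for all genes tested, of which 9.41% lay apart with lower and 9.2% with higher values in libraries labelled Atg5 KO. Smaller lists held differences in both directions, none of them past the test. The 6 tested neutrophil genes had a median of -0.70, with Csf3r at 0.60 and without overlap, Cxcr2 at -0.87 and S100a9 at -2.14. The 5 of T and NK cells had a median of -0.22, with Lck at -0.47, Trbc2 at -0.42 and Cd4 at 0.57. The 7 of dendritic cells had a median of -0.29, with Batf3 at 0.82 and without overlap, Flt3 at -0.47 and Itgae at -0.50. The 6 of B and plasma cells had a median of -1.04 (Mzb1 -1.51, Jchain -2.31), and the 6 of mast cells and eosinophils one of -1.54 (Cma1 -1.82, Mcpt4 -1.67, Tpsb2 -1.89). Of the former 1 lay apart with lower values, and of the latter 4. Fibroblasts, endothelium and tumour cells can make Ccl2 and Ccl7; a CD11b+ F4/80+ sort selects against such cells, and their part in the chemokine values was not tested.

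Among the receptors, Ccr2 and Ccr1, which monocytes and macrophages carry, were well above the filter, and Ccr8 was near 0. Ccr2, the shared receptor of Ccl2, Ccl7 and Ccl12, was at 40.6, 49.8 and 52.3 FPKM in libraries labelled Atg5 KO, against 32.9, 19.9 and 47.4 in those labelled Atg5 WT. The groups overlapped, with a log2 difference of 0.57, SE 0.31 (limma-trend adjusted p = 0.512). Ccr1, an inflammatory receptor that binds several CC chemokines, was at 50.1, 70.6 and 63.3 against 58.7, 23.2 and 88.6 (log2 difference 0.29). For both receptors the library labelled Atg5 WT replicate 2 was again the lowest.

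Ccr3, the eosinophil receptor, was at 0.924, 1.27 and 1.50 FPKM in libraries labelled Atg5 KO, against 1.01, 0.681 and 1.35 in those labelled Atg5 WT. Ccr8, the receptor of mouse Ccl8, did not reach the filter, at 0, 0.0417 and 0 against 0, 0.179 and 0.0461. The library labelled Atg5 WT replicate 2 held the highest of these, which rested on 4 reads. Ackr1, an endothelial and erythroid receptor that binds chemokines without signalling, ran the other way from Ccr2, at 1.998, 1.29 and 0.694 against 4.94, 5.77 and 1.43 (log2 difference -1.02, SE 0.45, limma-trend adjusted p = 0.492). The scavenging receptors Ackr2 and Ackr4 stayed at or below 0.335 in every library and were not tested. Of the 5 receptors tested, 4 had a higher and 1 a lower mean in libraries labelled Atg5 KO, with a median log2 difference of 0.29 beside -0.09 for all genes tested; 0 passed by limma-trend or limma-voom, and 0 had an unadjusted p under 0.05 by either.

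**Figure D4:**
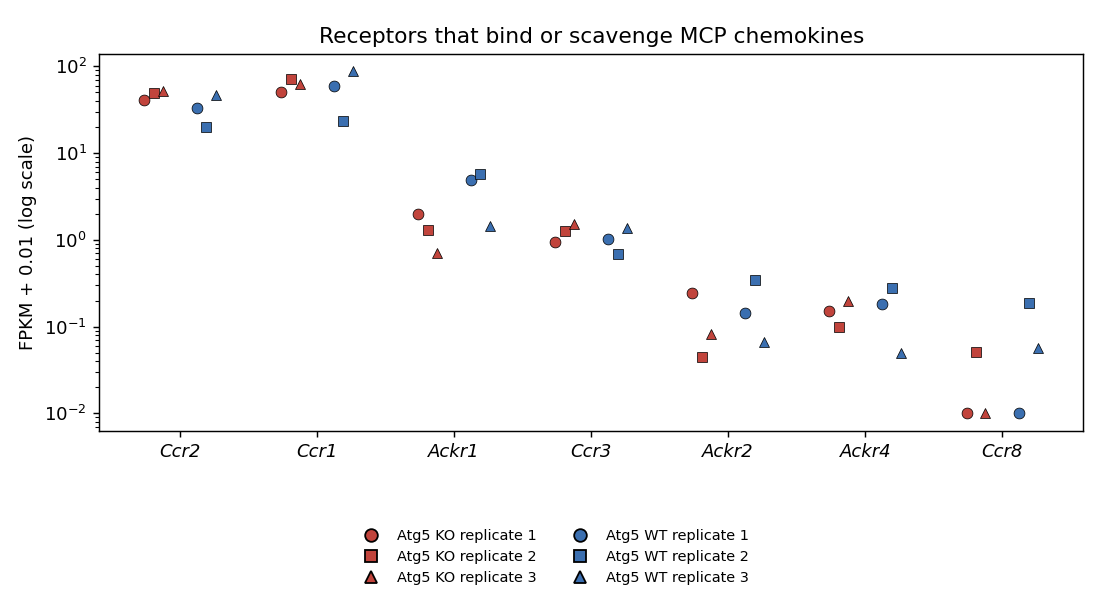
FPKM plus 0.01 (log axis) of 7 receptors that bind or scavenge MCP chemokines, in each library labelled Atg5 KO (red) and labelled Atg5 WT (blue). Ccr2 and Ccr1 lie between 19.9 and 88.6 FPKM, Ccr8 lies at or below 0.179, and the groups overlap for every receptor plotted.

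Other CC chemokines gave a comparison within the wider family. Of 14 listed, 10 were tested, 5 with a higher and 5 with a lower mean in libraries labelled Atg5 KO (median log2 difference 0.21). Ccl6, a macrophage chemokine of the mouse, resembled Ccl8 in level and direction, at 827, 927 and 1070.3 FPKM against 511, 334 and 739, without overlap. It differed by 0.90 on the log2 scale, SE 0.31 (limma-trend adjusted p = 0.492). Ccl9, its close relative, was at 176, 249 and 234 against 146, 82.6 and 213, with overlap (log2 difference 0.66). Ccl11 (eotaxin, a Ccr3 ligand), whose gene lies between Ccl7 and Ccl12, was low, at 1.70, 1.07 and 0.882 against 2.37, 8.33 and 1.08, and highest in the library labelled Atg5 WT replicate 2. Ccl1, on the other side of Ccl8, was at or below 0.0740 in every library. Of the 10, 0 passed by limma-trend or limma-voom, and 1 (Ccl6) had an unadjusted p under 0.05 by limma-trend and 0 by limma-voom.

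Genes for signals that induce these chemokines had differences in both directions. Of 12 listed inducers, 8 were tested, 2 with a higher and 6 with a lower mean in libraries labelled Atg5 KO (median -0.13). Il6, an inflammatory cytokine, was at 9.69, 16.2 and 8.69 FPKM against 19.6, 30.8 and 17.4, and Csf1, the macrophage growth factor, at 6.63, 4.99 and 2.78 against 12.2, 17.1 and 6.91. Neither overlapped between the groups, both were highest in the library labelled Atg5 WT replicate 2, and neither passed (limma-trend adjusted p = 0.492 for each). Il4, a cytokine of type 2 immunity, was at 2.54 ± 0.581 against 1.94 ± 0.538 (SD, n = 3 each). Ifng, Ifnb1, Il13 and Csf2 did not reach the filter. Of the 15 receptors for such signals 13 had a higher mean (median 0.31), with Tlr4, the endotoxin receptor, at 16.2, 11.98 and 16.8 against 10.1, 11.1 and 10.5, and Ifngr1, a chain of the interferon gamma receptor, at 93.9, 99.7 and 112 against 73.0, 56.1 and 84.4. Il1r1, the interleukin 1 receptor, was lower at 0.929, 1.29 and 0.687 against 2.33, 4.65 and 1.35. These 3 did not overlap and did not pass (limma-trend adjusted p = 0.492 for each).

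Of 14 transcription factors linked to MCP genes, 6 had a higher and 8 a lower mean in libraries labelled Atg5 KO (median -0.08). Irf1, a factor of the interferon response, stood at 106 ± 11.8 FPKM, against 71.7 ± 4.24 in those labelled Atg5 WT (SD, n = 3 each). Cebpb, an inflammatory factor of myeloid cells, was at 203 ± 27.5 against 267 ± 12.8 (SD, n = 3 each). Neither overlapped between the groups and neither passed (limma-trend adjusted p = 0.492 for each). Of 9 genes of mRNA decay and feedback, 4 had a higher and 5 a lower mean (median -0.07). Elavl1, an RNA-stabilising protein, was at 8.62 ± 0.415 against 9.91 ± 0.354, Zfp36l2, a destabilising one, at 188 ± 3.02 against 170.2 ± 11.3, and Zc3h12a, an RNase that degrades cytokine transcripts, at 70.3 ± 31.6 against 103 ± 32.8 (SD, n = 3 each). Across the lists of inducers, their receptors, transcription factors and decay genes, 0 passed by limma-trend or limma-voom. At an unadjusted p under 0.05 the counts were 2, 3, 3 and 0 of 8, 15, 14 and 9 tested genes by limma-trend. By limma-voom they were 2, 2, 2 and 0. Over all 12332 genes tested they were 1235 by limma-trend and 1285 by limma-voom. In these lists the groups lay apart, higher under the Atg5 KO label, for 0, 3, 4 and 1 genes, and lower for 2, 1, 2 and 1. The shares over all genes tested were 9.2% and 9.41%. The genes named here were among those of smallest p in their lists.

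Genes listed for recruited monocytes and for resident-type macrophages did not follow the label as a group. The sort selected against cells with Ly6C, so these values do not measure how many such monocytes the tumours held. Of 12 recruited-monocyte genes, 6 had a higher and 6 a lower mean in libraries labelled Atg5 KO (median 0.05), with 0 free of overlap. Plac8 was at 29.0, 14.1 and 31.9 FPKM against 11.1, 8.97 and 15.0, Ly6c2 had a log2 difference of 1.26 and Thbs1 one of -1.25, and none passed (limma-trend adjusted p = 0.492 for each). Of 14 genes of resident-type macrophages, 8 had a higher and 6 a lower mean (median 0.06). Cd5l, a secreted macrophage protein, was at 33.1, 12.5 and 43.0 against 6.18, 2.06 and 8.37, Timd4, a receptor for dying cells, at 19.8, 22.1 and 24.0 against 12.4, 4.05 and 18.3, and the transcription factor Maf at 34.96, 33.96 and 44.3 against 23.2, 12.8 and 33.0. These 3 did not overlap and did not pass (limma-trend adjusted p between 0.492 and 0.494). Over the 14 genes the groups lay apart, higher under the Atg5 KO label, for 3 and lower for 0. Those shares over all genes tested were 9.2% and 9.41%.

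The pattern of each member over the 6 libraries was set against 11395 other genes, by Pearson's r of log2(FPKM + 1) and as a description only. Nearest to Ccl2 were Mefv, Gp49a, F13a1, Antxr2 and Tmem109 (r between 0.998 and 0.999), and nearest to Ccl7 were Picalm, Lilrb4, Dpp7, Plekho2 and Pde8a (r between 0.999 and 1.00). Nearest to Ccl8 were Pkib, P2rx4, Rassf5, Nipa2 and Tmem19 (r between 0.998 and 1.00), and nearest to Ccl12 were Pik3ap1, Cd69, Lgmn, Cbfb and Slfn3 (r between 0.995 and 0.996). None of the 5 genes nearest to a member was among those nearest to another. Ccl7 was the 26th nearest gene to Ccl2 (r = 0.994), whereas Ccl8 was the 2229th (r = 0.590) and Ccl12 the 880th (r = 0.862). High values were common over the 6 libraries, and between 339 and 726 genes exceeded an r of 0.95 for each member.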

How the data were processed

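RNA from sorted macrophages of 6 mice was sequenced after NEBNext Ultra library preparation, per the labels' protocols. The authors deposited FPKM values for 35275 genes, 1 column per mouse, per the file headers. The build was mm10 and the tools included STAR and CASAVA, per the submitters' processing notes. The counting program, strand setting and annotation release were not given in the sources used here. Multiplied by listed length, 100% of FPKM values came out as whole reads (tolerance 0.01 read).

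Groups and replicate numbers came from the labels, which number the mice of each group. Values were taken as log2(FPKM + 1), so differences of low genes are understated; genes averaging an FPKM of 1 or more (12332) were fitted with the group as the only term in limma 3.58.1 (limma-trend, R 4.3.3, two-sided, Benjamini-Hochberg over all genes, threshold 0.05). Differences are labelled Atg5 KO minus labelled Atg5 WT. limma-voom on the recovered reads used TMM scaling, computed from its definition. Single values per library were compared by exact permutation. Fits were tested on simulated data.

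The 4 genes and the 17 gene lists (220 entries, 3 matched by identifier through GENCODE M21) were chosen with earlier results of these data known. Besides the members, Atg5, Lyz2 and sorting markers, the rule named up to 3 genes per list by smallest p, the MCP receptors and the 5 genes of highest r per member; Tnf was named after its values were seen. A few items that the rule names are counted in their lists but not reported here by name. Alternatives were pseudocounts of 0.1 and 0.5, no filter, a mean FPKM of at least 5, median-ratio and quantile scaling, robust empirical Bayes, limma-voom, the replicate block, 3 covariates and leaving out each library.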

Additional observations from a re-analysis of the deposited data

How the results depend on the processing

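None of the 18 alternatives put Ccl2, Ccl7, Ccl8 or Ccl12 past the threshold (smallest limma-trend adjusted p = 0.128, for Ccl8 when the library labelled Atg5 WT replicate 3 was left out). The Ccl8 difference was positive in 17 and the others in 13 (Ccl2), 14 (Ccl7) and 14 (Ccl12). With the tumour-cell score as covariate the differences of Ccl2, Ccl7 and Ccl12 were -0.38, -0.37 and -0.044, and with the macrophage score, added after seeing the data, -0.58, -0.63 and -0.47. With the stromal score those of Ccl2, Ccl7, Ccl8 and Ccl12 were -0.91, -1.07, -0.042 and -1.10. Leaving out 1 library gave -0.33 to 0.47 for Ccl2, -0.30 to 0.75 for Ccl7, 0.72 to 1.51 for Ccl8 and -0.085 to 1.17 for Ccl12. The cause was not tested. Over all genes, 1 (Lyz2) was called in the main test, 0 with no filter, with median-ratio scaling, with limma-voom and with the replicate block, and 0 to 18 with 1 library left out (the 18 when it was the one labelled Atg5 WT replicate 2). Median-ratio and quantile scaling moved the median of all genes to 0.03 from -0.09, with Ccl8 at 1.27 and 1.04.

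The labels number the mice of each group and do not say that equal numbers pair them. Deviations of same-numbered libraries from their group means correlated at 0.21, -0.38 and 0.59. Not every library correlated best with the one of its own number. With 3 libraries per group these correlations cannot decide whether the mice were paired. With the replicate block the differences of Ccl2, Ccl7, Ccl8 and Ccl12 were 0.12, 0.29, 1.13 and 0.66 (limma-trend adjusted p = 0.928, 0.852, 0.377 and 0.610).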
